A study of Homo sapiens with 8 samples.

Results

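The ATP-binding cassette (ABC) family was taken as every gene probe of the array whose gene name is ABC, a letter from A to G and a number. This gave 71 probes for 46 genes, of 58201 probes and 43317 gene names in all. ABC proteins bind and hydrolyse ATP on paired nucleotide-binding domains, and in most members this drives a substrate through membrane-spanning domains. Members of the B, C and G subfamilies export drugs and drug conjugates and are known for multidrug resistance in tumours, the A subfamily moves lipids, several B and D members sit in mitochondria, lysosomes or peroxisomes, and the E and F proteins have no membrane domain and act in translation.

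The study looked for microRNAs behind resistance of oral cancer cells to cisplatin, and the question here is how drug efflux and the other family genes stood after each microRNA. SAS cells, an established human squamous cancer line of the tongue, were transfected with a mimic of miR-874-3p, of miR-629-3p or of miR-210-3p, or else with a negative control (NC), each at 25 nM, and total RNA was labelled with Cy3 and hybridised to 1-colour whole-transcriptome arrays. All cells were of the same line, which the study's methods call SAS/GFP and the labels grow with a puromycin additive, so every group, NC included, shares that background. The study's methods name different suppliers for the mimics and the negative control, and give 24 h between transfection and extraction where the labels give 48 h. Each of the 4 groups had 2 arrays, and nothing states that these came from separate cultures, so p-values measure the spread between these samples, which may be technical. No drug was given in these groups, and bulk RNA cannot tell fewer cells of a type from less RNA per cell.

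The microRNAs that define the groups had these mature sequences, read from RefSeq on GRCh38.p14, 5′ to 3′, with the seed (bases 2 to 8) in capitals. They are shown because the seed is the stretch by which a microRNA is known to pair with its target messages, and the 3 seeds differ.
hsa-miR-629-3p: gUUCUCCCaacguaagcccagc
hsa-miR-210-3p: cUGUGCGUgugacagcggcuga
hsa-miR-874-3p: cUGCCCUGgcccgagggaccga
They lie at chr15:70079387-70079408, chr11:568112-568133 and chr5:137647582-137647603, all on the minus strand. None of the 71 family probes held the 7 bases complementary to any of the 3 seeds (GGGAGAA for miR-629-3p, ACGCACA for miR-210-3p, CAGGGCA for miR-874-3p, searched on the probe's own strand), against 0.747%, 0.131% and 0.387% of all probes. That describes the short probe sequences only, not the rest of the transcripts.

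All 8 arrays lay on 1 slide and were read in 1 scan. Slide row 1 held the arrays of miR-210-3p and miR-629-3p, and row 2 those of NC and miR-874-3p, so slide row and group cannot be told apart for any comparison except miR-629-3p against miR-210-3p and NC against miR-874-3p, which stayed within a row. Between 41.8% and 49.8% of all probes, and 38 to 47 of the family probes, were well above background on an array. Each row 1 array had a higher share of all probes above background than any row 2 array. The squamous markers KRT5, KRT14, KRT6A, KRT17, TP63, SFN, EGFR and CDH1 were well above background on all 8 arrays. Their summed level (log2) was 8.84 to 8.95 in NC, 8.66 to 8.94 with miR-874-3p, 8.53 to 8.56 with miR-629-3p and 8.02 to 8.03 with miR-210-3p. Of 9 markers of other cell types, PTPRC and VWF were well above background on all arrays and DCN, COL1A2 and ALB on none. Their summed level (log2) was 0.73 to 1.22 in NC, 0.75 to 0.87 with miR-874-3p, 1.06 to 1.59 with miR-210-3p and 1.52 to 1.53 with miR-629-3p, and the part of either list in the results below was not tested.

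Levels are given as log2 of the processed signal minus the array's 75th percentile, so a level of 0 is the brightness of the 75th percentile probe of that array. They compare a gene between arrays, not genes with each other. Of the 46 genes, 31 were tested, since both arrays of some group read their probe well above background, and 26 of these were so on all 8 arrays. A gene that entered through the group where it is bright was bound to differ, so counts over the 31 are descriptions. Of the 15 genes not tested, 11 had no probe well above background on any array: ABCA6, ABCA8, ABCB1, ABCB4, ABCB5, ABCB11, ABCC8, ABCC9, ABCC12, ABCD2 and ABCG4. The other 4, ABCC11, ABCC13, ABCG5 and ABCG8, had a probe that was so on 1 array. ABCB1, which encodes the multidrug exporter P-glycoprotein, was therefore not measurable here with either of its 2 probes, in NC or after any of the microRNAs.

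A gene was called when limma's Benjamini-Hochberg adjusted p over all 21283 genes tested was under 0.05. Against NC, miR-629-3p called 8 of the 31 family genes, where 16.8% of all genes tested were called. Those higher were ABCA5, ABCA10, ABCA12, ABCA13, ABCC2 and ABCG2 (6 genes, beside 9.28% of all genes), and those lower were ABCA2 and ABCB6 (2 genes, beside 7.47%). With miR-210-3p 5 of 31 were called, beside 6.05% of all genes: ABCB10 was higher (3.85% of all genes were), and ABCA10, ABCA13, ABCB6 and ABCF2 were lower (2.2% of all genes were). With miR-874-3p ABCA13 was called lower, 1 of 31 genes beside 0.423% of all genes (0.207% lower and 0.216% higher, with no family gene higher). These comparisons share the 2 NC arrays. Among the 26 genes measured on all 8 arrays, which did not enter through a bright group, 8 were called with miR-629-3p (23.2% of all genes so measured). These were 4 higher and 4 lower, and not the same 8, since ABCA13 and ABCC2 were not in this set. With miR-210-3p 6 were called (11.1%), 2 higher and 4 lower, and with miR-874-3p none (0.563%). Shares by direction over all genes so measured were not counted. For miR-874-3p limma gave 6 of the 31 genes an unadjusted p under 0.05, and the share over all genes was not counted.

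Over the 31 genes the median difference from NC was 0.09 (log2) with miR-629-3p, where it was 0.02 over all genes tested, -0.15 with miR-210-3p, where it was 0.05, and -0.01 with miR-874-3p, where it was -0.01. With miR-210-3p 10 of the 31 genes lay above NC (32.3%), beside 57.6% of all genes. miR-629-3p gave the highest of the 4 group means for 14 of the 31 genes and miR-210-3p the lowest for 16. Such ranks were not counted over all genes, so they describe these 31 only.

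**Figure D1:**
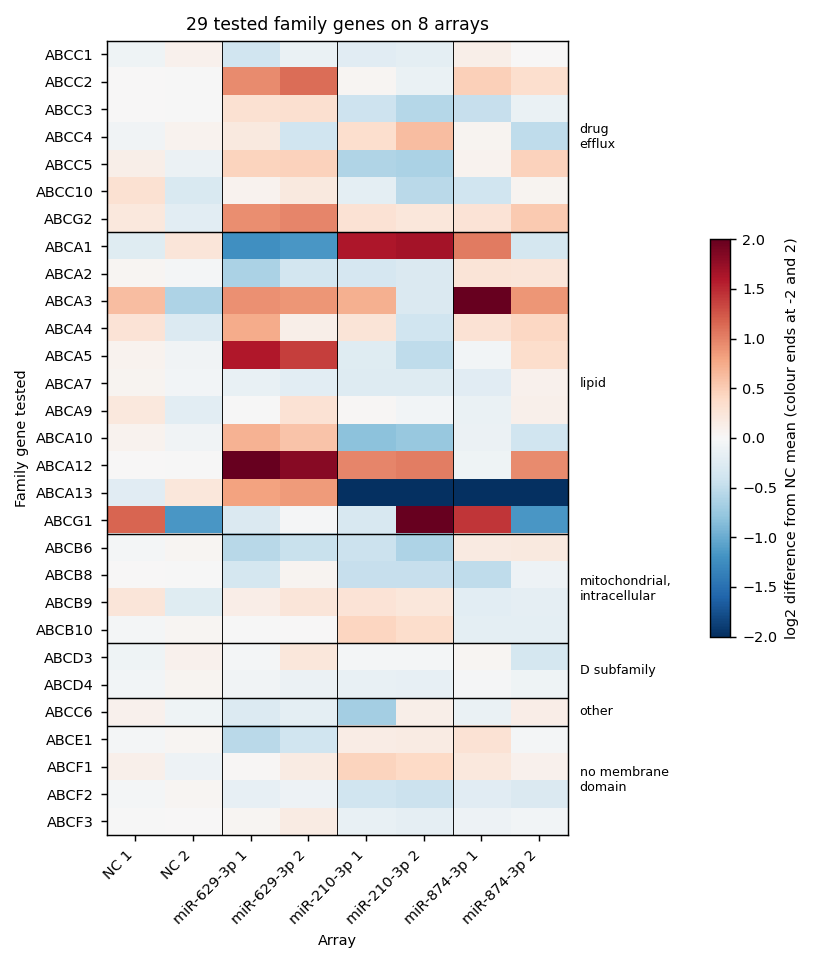
Colour shows the log2 difference of each array from the mean of the 2 NC arrays for 29 tested family genes (rows, by role), with arrays in columns; colours end at -2 and 2. ABCA5, ABCA10, ABCA12, ABCC2 and ABCG2 stand above NC on both miR-629-3p arrays, and ABCG1 swings between replicates of 3 groups.

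Direct comparison within slide row 1 gave the largest number of calls among the family. Between miR-629-3p and miR-210-3p 11 of 31 genes were called, beside 22.6% of all genes. ABCA5, ABCA10, ABCA13, ABCC2, ABCC3, ABCC5, ABCF2 and ABCG2 were higher with miR-629-3p (8 genes, beside 9.83%), and ABCA1, ABCB10 and ABCE1 were lower (3 genes, beside 12.7%). Of the 26 genes measured on all arrays, 12 were called in this comparison, beside 31.3% of all genes so measured. Between miR-629-3p and miR-874-3p 9 were called (16.2% of all genes): ABCA5, ABCA10, ABCA12, ABCA13, ABCC2 and ABCC3 were higher with miR-629-3p (6 genes, beside 9.34%), and ABCA2, ABCB6 and ABCE1 were lower (3 genes, beside 6.88%). Setting miR-210-3p against miR-874-3p, 5 were called (9.8%), of which ABCB10 was higher with miR-210-3p (1 gene, beside 6.33%) and ABCA2, ABCA10, ABCB6 and ABCC5 were lower (4 genes, beside 3.47%). By the study's threshold of an unadjusted p under 0.05 and a 2-fold difference, 4 family genes passed for miR-629-3p against NC (5.26% of all genes), 2 for miR-210-3p (3.14%) and 2 for miR-874-3p (2.02%). The same threshold passed 7 for miR-629-3p against miR-210-3p (5.61%), 5 for miR-629-3p against miR-874-3p (5.14%) and 1 for miR-210-3p against miR-874-3p (3.76%).

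Of the drug efflux genes, ABCC2 and ABCG2 rose with miR-629-3p against NC, and on their brightest probes ABCC3 and ABCC5 were also higher with miR-629-3p than with miR-210-3p, which further probes of both did not all share. Of the 10 genes in this role 7 were tested. Against NC, 2 were higher with miR-629-3p (beside 9.28% of all genes) and none with miR-874-3p (0.216%) or with miR-210-3p (3.85%), and none was lower with any of them. Among the genes measured on all 8 arrays ABCC5 was called lower with miR-210-3p, where 11.1% of those genes were called. The median difference of the 7 was 0.31 log2 with miR-629-3p (0.02 over all genes), 0.06 with miR-874-3p (-0.01) and -0.21 with miR-210-3p (0.05). The median with miR-629-3p is the value of ABCC3 on its brightest probe, whereas the second ABCC3 probe gave -0.44.

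ABCC2 encodes MRP2, which exports glutathione and glucuronide conjugates. Of its 2 probes only 1 (hg19 chr10:101611322-101611381, plus strand) was well above background on any array. That probe read -2.14 and -1.96 after miR-629-3p, -3.05 and -3.22 after miR-210-3p, -2.60 and -2.75 after miR-874-3p and -3.07 and -3.09 in NC. The miR-629-3p arrays were the highest and did not overlap any other group, and the miR-874-3p arrays lay above those of miR-210-3p and NC. Neither NC array was well above background, so in the main processing ABCC2 was at least 1.72-fold higher with miR-629-3p than in NC (limma adjusted p = 0.00626). Against miR-210-3p, where both groups were measured, it was 2.12-fold higher (1.08 ± 0.11 log2, SE, limma adjusted p = 0.00461), and against miR-874-3p 1.54-fold higher (adjusted p = 0.0178). With miR-874-3p the difference from NC, at least 1.11-fold, did not pass (adjusted p = 0.162). The calls against NC and miR-210-3p held without each array in turn, at adjusted p of at most 0.0448 and 0.0367, while that against miR-874-3p rose to as much as 0.0958 without either miR-629-3p array.

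ABCG2 encodes BCRP, an exporter of many anticancer drugs and of porphyrins. Its probe (hg19 chr4:89011503-89011562, minus strand) read -1.23 and -1.19 after miR-629-3p, -1.88 and -1.93 after miR-210-3p, -1.89 and -1.63 after miR-874-3p and -1.96 and -2.37 in NC. Both miR-629-3p arrays stood above all others, while those of the other microRNAs overlapped. The gene was 1.94-fold higher with miR-629-3p than in NC (0.96 ± 0.16 log2, SE, limma adjusted p = 0.0173) and 1.62-fold higher than with miR-210-3p (adjusted p = 0.0311). The 1.47-fold difference from miR-874-3p did not pass (adjusted p = 0.0691). Without either miR-629-3p array or NC replicate 2 the adjusted p against NC reached up to 0.093, and without either array of the compared groups that against miR-210-3p reached up to 0.137.

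ABCC3 encodes MRP3, an exporter of organic anions and glucuronides. Its brightest probe (hg19 chr17:48745220-48745279, plus strand) read 2.97 and 2.99 after miR-629-3p, 2.26 and 2.10 after miR-210-3p, 2.20 and 2.55 after miR-874-3p and 2.68 and 2.67 in NC. The NC arrays lay between those of miR-629-3p above and those of the other microRNAs below. On this probe ABCC3 was 1.74-fold higher with miR-629-3p than with miR-210-3p (0.80 ± 0.13 log2, SE, limma adjusted p = 0.0125) and 1.52-fold higher than with miR-874-3p (adjusted p = 0.0314). Against NC neither the difference of 0.31 with miR-629-3p (adjusted p = 0.155) nor that of -0.49 with miR-210-3p (adjusted p = 0.0825) passed. Without either array of the compared groups the adjusted p against miR-210-3p reached up to 0.076, and that against miR-874-3p passed only without miR-874-3p replicate 2, with up to 0.135 otherwise.

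ABCC5 encodes MRP5, which exports cyclic nucleotides and nucleotide analogues. Its brightest probe (hg19 chr3:183637742-183637801, minus strand) read 3.12 and 3.14 after miR-629-3p, 2.07 and 2.04 after miR-210-3p, 2.74 and 3.12 after miR-874-3p and 2.78 and 2.55 in NC. Both miR-210-3p arrays were below all others, and the miR-874-3p arrays overlapped those of NC and miR-629-3p. On this probe ABCC5 was 2.10-fold higher with miR-629-3p than with miR-210-3p (1.07 ± 0.15 log2, SE, limma adjusted p = 0.00868) and 1.83-fold lower with miR-210-3p than with miR-874-3p (adjusted p = 0.0264). Against NC the differences were 0.46 with miR-629-3p (adjusted p = 0.0897) and -0.61 with miR-210-3p (adjusted p = 0.0699). Without either array of the compared groups the adjusted p between miR-629-3p and miR-210-3p reached up to 0.0579, and without either miR-210-3p or miR-629-3p array the adjusted p against miR-874-3p reached up to 0.135.

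The remaining drug efflux genes gave no call in any of the 6 comparisons. ABCC1, which encodes MRP1, read 0.01 and 0.26 after miR-629-3p, 0.17 and 0.21 after miR-210-3p, 0.51 and 0.41 after miR-874-3p and 0.32 and 0.49 in NC. Its difference from NC was -0.27 with miR-629-3p, with a 95% interval from -0.55 to 0.01 (limma adjusted p = 0.165). ABCC4, which encodes MRP4, an exporter of cyclic nucleotides and prostaglandins, read -1.69 and -2.27 after miR-629-3p, -1.54 and -1.26 after miR-210-3p, -1.82 and -2.39 after miR-874-3p and -1.95 and -1.82 in NC. The miR-210-3p arrays were above the others, but the difference from NC of 0.48 had an interval from -0.18 to 1.14 (adjusted p = 0.318). ABCC10, which encodes MRP7, an exporter of taxanes, read -0.23 and -0.10 after miR-629-3p, -0.50 and -0.83 after miR-210-3p, -0.70 and -0.24 after miR-874-3p and 0.01 and -0.61 in NC. The NC arrays of ABCC10 spanned most of the range of the other groups, and its difference from NC with miR-629-3p was 0.13, with an interval from -0.52 to 0.78 (adjusted p = 0.764).

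**Figure D2:**
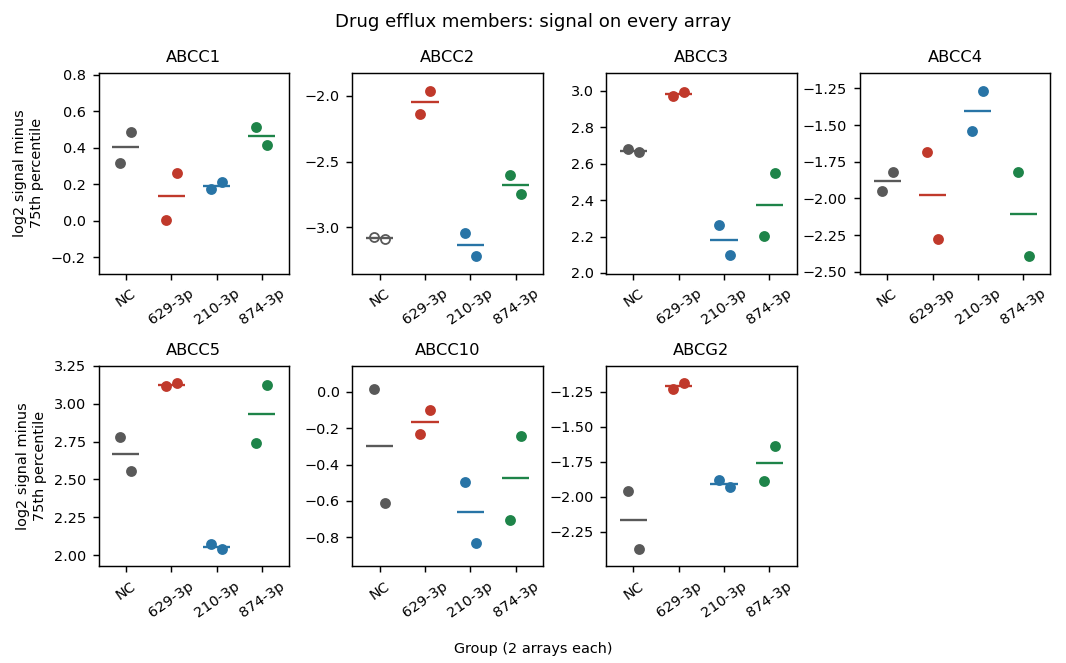
Each panel gives the log2 signal minus the array's 75th percentile (vertical axis, each with its own range) of a tested drug efflux gene on the 2 arrays of each group (points) with the group mean (line); open points are groups not well above background on both arrays. The miR-629-3p points of ABCC2 and ABCG2 stand above those of all other groups, and the miR-210-3p points of ABCC5 stand below.

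The probes of ABCC5 did not change alike. The array has 3 probes for the gene, all on the minus strand of hg19 chromosome 3: that described above, which lies nearest the 3′ end, a middle probe at chr3:183701567-183701626 and the 5′-most probe at chr3:183705586-183705645. The files assign the 3′-most probe to a different ABCC5 transcript than the other 2, and do not say which exon each lies in. The first 30 bases of each probe, as the files give them, show which stretch of the gene each reading comes from.
ABCC5 3′-most: tcgccttagcatgtttgctgaacaccttgt
ABCC5 middle: cacctgctgtacagtgtttgtgagatgctc
ABCC5 5′-most: aagggttgtgtggatcttctgccgcaccag
The middle probe read 2.15 and 2.10 after miR-629-3p, 2.64 and 2.58 after miR-210-3p, 2.69 and 2.60 after miR-874-3p and 2.63 and 2.35 in NC. On the 5′-most probe the readings were -0.64 and -0.63 after miR-629-3p, -1.26 and -1.09 after miR-210-3p, -0.75 and -0.74 after miR-874-3p and -1.05 and -1.04 in NC. So the miR-629-3p arrays were the lowest on the middle probe and the highest on the 5′-most probe, while on the 3′-most probe a miR-874-3p array lay between them. Tested probe by probe with limma over 27303 probes, miR-629-3p against miR-210-3p gave 1.07 on the 3′-most probe (adjusted p = 0.00968), -0.48 on the middle probe (adjusted p = 0.0334) and 0.54 on the 5′-most probe (adjusted p = 0.0121). Tested as differences between probes, the change on the 3′-most probe exceeded that on the middle probe by 1.55 ± 0.17 log2 (SE, limma adjusted p = 0.0199), and the change on the 5′-most probe exceeded it by 1.02 ± 0.14 (adjusted p = 0.0314). In this comparison 4.53% of all 7811 pairs of probes of a gene were called apart, against 1.09% for miR-629-3p and NC, 0.781% for miR-210-3p and NC, 0.179% for miR-874-3p and NC, 0.615% for miR-629-3p and miR-874-3p, and 1.08% for miR-874-3p and miR-210-3p. ABCC5 was the only family gene with probes called apart in any of the 6 comparisons, of 11 with several tested probes and 17 pairs.

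For ABCC3 the second probe, at hg19 chr17:48768701-48768760, read -0.08 and 0.16 after miR-629-3p, -0.07 and 0.01 after miR-210-3p, 0.66 and 0.35 after miR-874-3p and 0.39 and 0.57 in NC. The array annotation assigns it to a different ABCC3 transcript than the brightest probe. Against NC the second probe gave -0.44 with miR-629-3p (limma adjusted p = 0.096 over all probes), opposite in sign to the 0.31 of the brightest probe. Between miR-629-3p and miR-210-3p it gave 0.07 (adjusted p = 0.785). Between miR-629-3p and miR-874-3p it gave -0.47 (adjusted p = 0.0859), opposite in sign to the 0.61 of the brightest probe. The probes of ABCC3 were not called apart (adjusted p = 0.172 against NC, 0.148 against miR-210-3p and 0.103 against miR-874-3p), and the ABCC3 calls rest on the brightest probe.

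**Figure D3:**
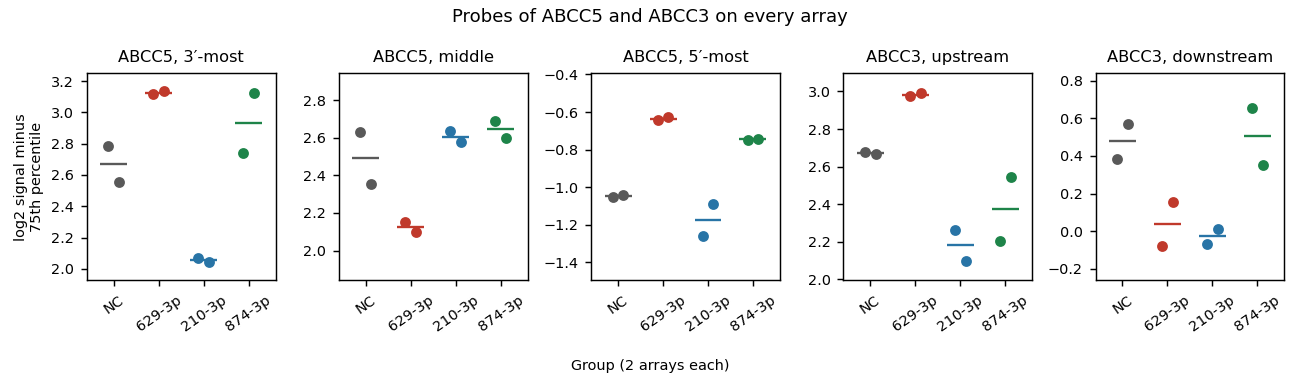
Log2 signal minus the array's 75th percentile (vertical axis, each with its own range) of the 3 ABCC5 probes and the 2 ABCC3 probes on the 2 arrays of each group (points) with the group mean (line). On the middle ABCC5 probe the miR-629-3p arrays are the lowest, at 2.15 and 2.10, while on the 5′-most probe they are the highest.

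Among the 17 lipid transporters, 11 were tested. Against NC, 4 were higher and 1 was lower with miR-629-3p, beside 9.28% and 7.47% of all genes. With miR-210-3p 2 were lower (beside 2.2%) and with miR-874-3p 1 was lower (beside 0.207%). ABCA13, which was tested only through the miR-629-3p arrays, is in each of these counts except the 1 lower with miR-629-3p.

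ABCA12, the transporter that loads glucosylceramides into the lamellar granules of keratinocytes, read 0.23 and -0.17 after miR-629-3p, -1.02 and -0.97 after miR-210-3p, -2.07 and -1.04 after miR-874-3p and -1.98 and -1.99 in NC (hg19 chr2:215796277-215796336, minus strand). The miR-629-3p arrays stood above all others, and the replicates of miR-874-3p differed by more than 2-fold. It was 4.04-fold higher with miR-629-3p than in NC (2.02 ± 0.33 log2, SE, limma adjusted p = 0.0172) and 3.00-fold higher than with miR-874-3p (adjusted p = 0.0308). Within slide row 1 it was 2.03-fold higher with miR-629-3p than with miR-210-3p (1.02 log2), which did not pass (limma adjusted p = 0.0795). The difference of 1.00 between miR-210-3p and NC did not pass (adjusted p = 0.135). Without either miR-629-3p or NC array the adjusted p against NC reached up to 0.0994, and against miR-874-3p up to 0.146 without any 1 array of miR-629-3p, miR-210-3p or NC.

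ABCA5, a transporter of late endosomes and lysosomes, read 3.42 and 3.20 after miR-629-3p, 1.58 and 1.31 after miR-210-3p, 1.77 and 2.18 after miR-874-3p and 1.90 and 1.75 in NC (hg19 chr17:67243530-67243589, minus strand). Both miR-629-3p arrays were above all others by more than the spread of any group. It was 2.80-fold higher than in NC (1.49 ± 0.18 log2, SE, limma adjusted p = 0.0085), 3.63-fold higher than with miR-210-3p (adjusted p = 0.00432) and 2.52-fold higher than with miR-874-3p (adjusted p = 0.00984). The call against miR-210-3p held without each array in turn, that against NC was lost without miR-629-3p replicate 1 (adjusted p = 0.0605) and that against miR-874-3p without either miR-629-3p array (up to 0.0661).

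ABCA10, a neighbour of ABCA5 in the chromosome 17 cluster of A subfamily genes, read -0.78 and -0.89 after miR-629-3p, -2.28 and -2.22 after miR-210-3p, -1.59 and -1.86 after miR-874-3p and -1.40 and -1.53 in NC. The 4 groups did not overlap, in the order miR-629-3p, NC, miR-874-3p and miR-210-3p. It was the family gene called in opposite directions against NC on measured values, 1.55-fold higher with miR-629-3p (limma adjusted p = 0.0217) and 1.72-fold lower with miR-210-3p (adjusted p = 0.0256). The 2.67-fold difference between these microRNAs (1.42 ± 0.12 log2, SE, adjusted p = 0.00334) held without each array in turn. Both calls against NC were lost without any 1 array of miR-629-3p, miR-210-3p or NC, with adjusted p of up to 0.121 and 0.144. Against miR-874-3p it was 1.86-fold higher with miR-629-3p (adjusted p = 0.00944) and 1.44-fold lower with miR-210-3p (adjusted p = 0.0482). The first was lost without either miR-629-3p array (up to 0.0661), and the second passed only without miR-874-3p replicate 2 (otherwise up to 0.212).

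ABCA13, a very large A subfamily protein, read -1.96 and -1.92 after miR-629-3p, -5.53 and -5.59 after miR-210-3p, -5.38 and -5.02 after miR-874-3p and -2.996 and -2.541 in NC (hg19 chr7:48686854-48686913, plus strand). It was not well above background on any miR-210-3p or miR-874-3p array and was so on 1 of the 2 NC arrays. ABCA13 was tested only because both miR-629-3p arrays measured it, so its calls are a description and support nothing. Its signal was at least 2.76-fold higher with miR-629-3p than with miR-210-3p and at least 2.13-fold higher than with miR-874-3p. Against NC, measured on 1 of its arrays, it was at least 1.55-fold lower with miR-210-3p and at least 1.20-fold lower with miR-874-3p. Leaving out either array of miR-629-3p or miR-210-3p lost the call of miR-874-3p against NC, and either of these or NC replicate 1 lost that of miR-629-3p against NC.

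ABCA1, which exports cholesterol and phospholipid to apolipoprotein A-I, read -2.87 and -2.80 after miR-629-3p, -0.02 and 0.03 after miR-210-3p, -0.60 and -1.99 after miR-874-3p and -1.89 and -1.39 in NC (hg19 chr9:107543704-107543763, minus strand). The miR-210-3p arrays were the highest and the miR-629-3p arrays the lowest, while the replicates of miR-874-3p lay more than 2-fold apart. A second ABCA1 probe was not well above background on any array. ABCA1 was 7.15-fold lower with miR-629-3p than with miR-210-3p (2.84 ± 0.44 log2, SE, limma adjusted p = 0.012), which was lost without any 1 array of these groups (up to 0.0704). Against NC it passed the study's threshold of an unadjusted p under 0.05 and a 2-fold difference in both directions, lower with miR-629-3p and higher with miR-210-3p, but not the adjusted one (adjusted p = 0.124 and 0.0893).

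ABCA2, a lipid transporter of late endosomes and lysosomes, read -1.22 and -0.96 after miR-629-3p, -0.92 and -0.87 after miR-210-3p, -0.33 and -0.35 after miR-874-3p and -0.54 and -0.63 in NC. The arrays of slide row 1 lay below those of row 2. On this brightest probe it was 1.42-fold lower with miR-629-3p than in NC (limma adjusted p = 0.0296), 1.68-fold lower than with miR-874-3p (adjusted p = 0.0112) and 1.47-fold lower with miR-210-3p than with miR-874-3p (adjusted p = 0.0336). Without NC replicate 1 or 2, or any miR-629-3p or miR-210-3p array, the call against NC was lost (up to 0.116), and that of miR-210-3p against miR-874-3p was lost without any 1 array of these or of NC (up to 0.171). Without miR-629-3p replicate 1 the adjusted p between miR-629-3p and miR-874-3p was 0.0549. A second ABCA2 probe (hg19 chr9:139918595-139918654, minus strand), not well above background on any NC or miR-874-3p array, gave the opposite sign against NC, 0.63 with miR-210-3p and 0.44 with miR-629-3p (limma adjusted p = 0.302 and 0.414 over all probes). The changes of the 2 probes differed by -0.94 and -0.95, which did not pass (adjusted p = 0.191 and 0.142).

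Of the lipid transporters that gave no call, ABCA4, ABCA7 and ABCA9 differed from NC by -0.26 to 0.43 (log2). ABCA3, the lamellar body phospholipid transporter, was not well above background on either NC array and was tested only through the miR-629-3p arrays. With miR-874-3p it read -1.45 and -2.94, replicates more than 2-fold apart with only 1 well above background. No bound on its fold over NC can be given there, and the difference did not pass (limma adjusted p = 0.301). ABCG1, which passes cholesterol to high-density lipoprotein, had replicates more than 2-fold apart in 3 of the 4 groups, so its differences cannot be read (standard error 1.28 log2).

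In the B subfamily of mitochondria and other internal membranes, all 5 genes were tested. ABCB6, a porphyrin transporter, read -0.03 and 0.07 after miR-629-3p, 0.09 and -0.09 after miR-210-3p, 0.70 and 0.72 after miR-874-3p and 0.48 and 0.56 in NC. As for ABCA2, the arrays of slide row 1 lay below those of row 2. It was 1.42-fold lower than in NC with miR-629-3p (limma adjusted p = 0.0211) and 1.44-fold lower with miR-210-3p (adjusted p = 0.0364), and 1.61-fold and 1.64-fold lower than with miR-874-3p (adjusted p = 0.00957 and 0.0141). No family gene other than ABCB6 was called lower than NC with both miR-629-3p and miR-210-3p. ABCA2 was 1.24-fold lower with miR-210-3p without passing (limma adjusted p = 0.135). Leaving out any 1 array of miR-629-3p or NC lost the miR-629-3p call against NC (adjusted p up to 0.119), and any 1 array of miR-629-3p, miR-210-3p or NC lost that of miR-210-3p (up to 0.161). The calls against miR-874-3p were each lost without either array of the other group (up to 0.0663 and 0.0798).

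ABCB10, of the mitochondrial inner membrane and needed for heme synthesis, read 2.70 and 2.72 after miR-629-3p, 3.14 and 3.06 after miR-210-3p, 2.53 and 2.51 after miR-874-3p and 2.68 and 2.75 in NC. The miR-210-3p arrays were above all others and the miR-874-3p arrays below. ABCB10 was 1.31-fold higher with miR-210-3p than in NC (0.38 ± 0.07 log2, SE, limma adjusted p = 0.0401), 1.31-fold higher than with miR-629-3p (adjusted p = 0.0165) and 1.49-fold higher than with miR-874-3p (adjusted p = 0.0123). Leaving out a miR-210-3p array lost each of these calls, with adjusted p of up to 0.204, 0.103 and 0.0934, as did a miR-629-3p array for the first and the second and an NC array for the first. A second ABCB10 probe also read higher with miR-210-3p, by 0.36 against NC, 0.19 against miR-629-3p and 0.47 against miR-874-3p. None of these passed over all probes (limma adjusted p = 0.125, 0.288 and 0.0647). ABCB8 and ABCB9 were not called in any comparison, with differences from NC between -0.46 and 0.25.

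Among the 4 proteins with no membrane domain, ABCE1, the ribosome recycling factor, read 1.84 and 1.99 after miR-629-3p, 2.53 and 2.55 after miR-210-3p, 2.68 and 2.34 after miR-874-3p and 2.35 and 2.42 in NC. Both miR-629-3p arrays were the lowest and the other groups overlapped or lay close together. It was 1.55-fold lower with miR-629-3p than with miR-210-3p (0.63 ± 0.13 log2, SE, limma adjusted p = 0.0233) and 1.51-fold lower than with miR-874-3p (adjusted p = 0.0332), while the difference of -0.47 from NC did not pass (adjusted p = 0.0599). The first was lost without any 1 array of the compared groups (up to 0.119), and the second passed only without miR-874-3p replicate 2 (otherwise up to 0.156).

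ABCF2, a cytosolic ATPase, read 2.47 and 2.54 after miR-629-3p, 2.23 and 2.21 after miR-210-3p, 2.41 and 2.35 after miR-874-3p and 2.59 and 2.68 in NC. The 4 groups did not overlap, with NC the highest. It was 1.33-fold lower with miR-210-3p than in NC (limma adjusted p = 0.0369) and 1.22-fold lower than with miR-629-3p (adjusted p = 0.041). Leaving out any 1 array of miR-629-3p, miR-210-3p or NC lost both calls (up to 0.175 and 0.18). The D subfamily genes ABCD3 and ABCD4, and ABCC6, gave no call in any comparison. ABCF1 and ABCF3 gave none over the 21283 genes, but among the genes measured on all 8 arrays both were called between miR-629-3p and miR-210-3p, and ABCF1 also between miR-210-3p and NC. That set also called ABCC5 between miR-210-3p and NC and ABCE1 between miR-629-3p and NC. It called ABCA1 and ABCG2 between miR-629-3p and miR-874-3p.

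**Figure D4:**
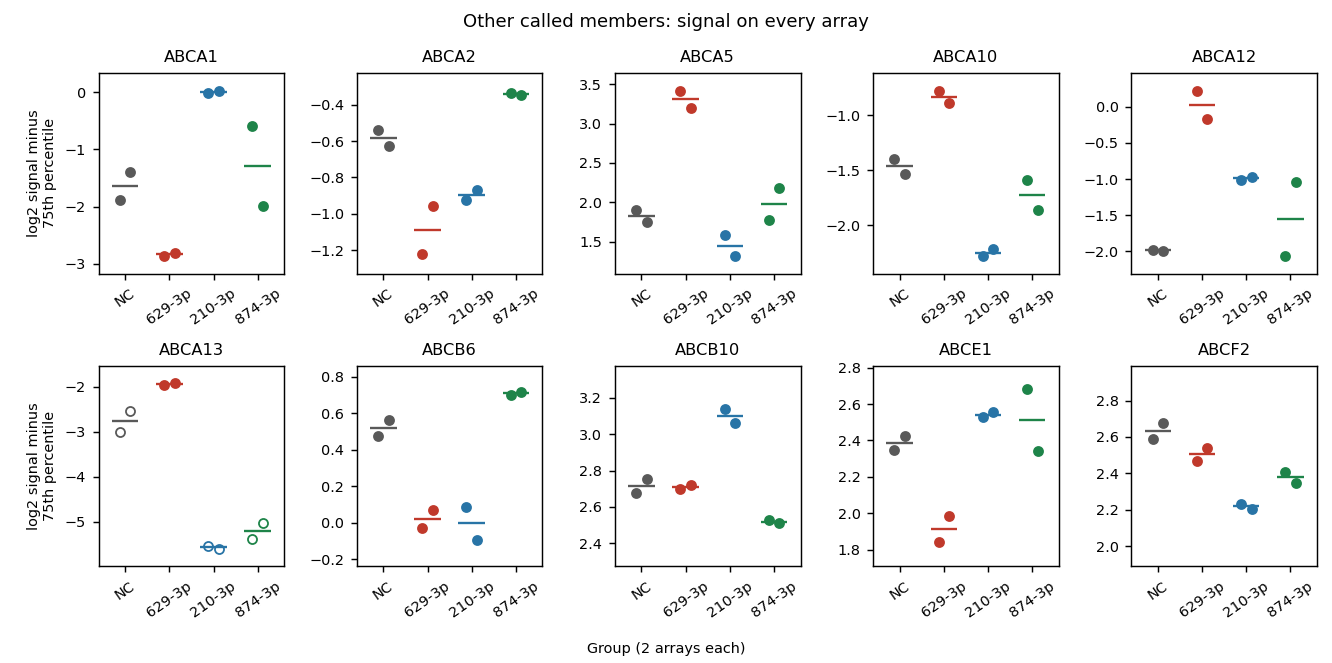
Log2 signal minus the array's 75th percentile (vertical axis, each with its own range) of the 10 called family genes outside drug efflux on the 2 arrays of each group (points) with the group mean (line); open points are groups not well above background on both arrays. ABCA5, ABCA10, ABCA12 and ABCA13 are highest on the miR-629-3p arrays, ABCA1 and ABCB10 on the miR-210-3p arrays.

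**Figure D5:**
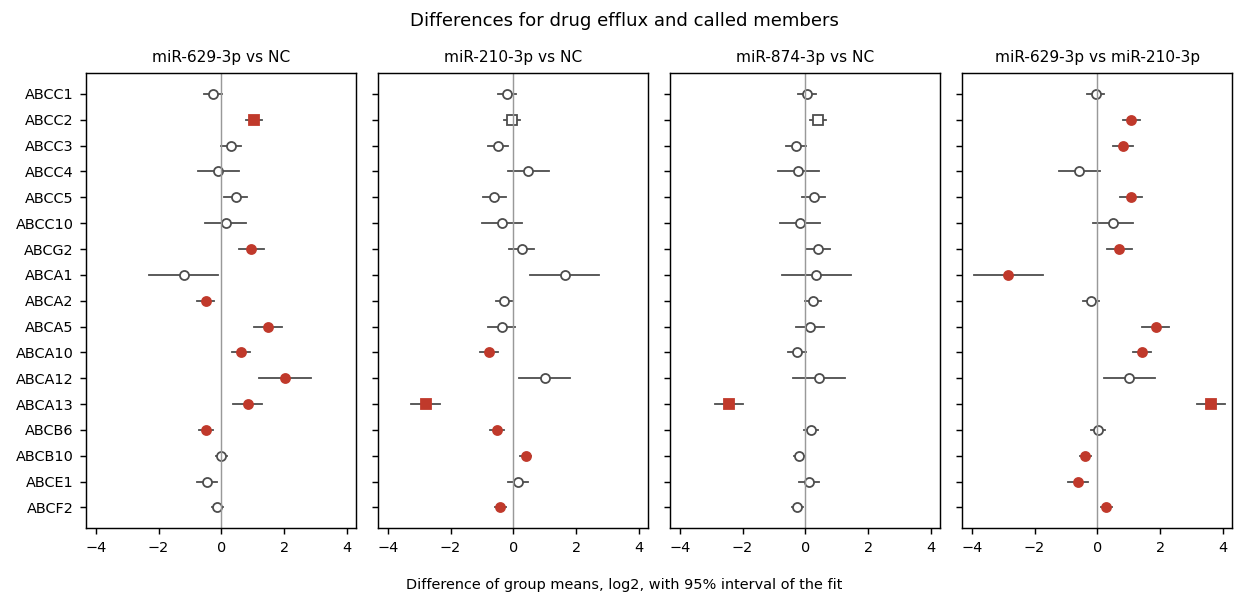
Difference of group means (horizontal axis, log2) with the 95% interval of the limma fit for the 7 tested drug efflux genes and the 10 other called genes, in 4 comparisons; filled red marks passed an adjusted p of 0.05, and squares are differences in which a group was not well above background on either array. ABCC2 and ABCG2 are filled against NC with miR-629-3p only, and ABCC3 and ABCC5 join them in the comparison of miR-629-3p with miR-210-3p.

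Promoters were searched because 8 members were called together with miR-629-3p and NRF2, a known regulator of efflux genes, binds the antioxidant response element. Its own gene, NFE2L2, was not among the genes tested. Of the 46 genes 35 had a promoter in RefSeq's table (GRCh38.p14, mostly the bases before the start), with 53 starts in all. The element's core TGACNNNGC, on either strand, was found in 22.6% of the family's starts and 13.3% of the 35116 starts of all genes. ACGTG, the core of the hypoxia response element, was found in 26.4% and 21.4%, and GCGTG, the core of the xenobiotic response element, in 43.4% and 36.5%. The first core lay in 12 of the 35 genes, of which ABCC11 and ABCG4 were not tested. Among them ABCA2, ABCA5, ABCB6 and ABCG2 were called with miR-629-3p against NC, in both directions, where 16.8% of all genes were called. No match was found for ABCA10, ABCA12, ABCA13 or ABCC2, also called, though not all 46 genes had a promoter to search. The 30 bases around the core in ABCA5, ABCG2, ABCA2 and ABCB6 are shown on the strand that reads it, with the core in capitals.
ABCA5: tcagtgcgggTGACCCAGCtgggatctgtg
ABCG2: gcagcgcttgTGACTGGGCaacctgtgcgt
ABCA2: tgggtggctcTGACGGCGCttcccagactc
ABCB6: cctgggcacgTGACCAAGCcggctctgctt
They lie at chr17:69327105-69327134 (plus strand), chr4:88159270-88159299 (minus strand), chr9:137029017-137029046 (plus strand) and chr2:219219091-219219120 (minus strand). A match is a string of letters and not a measured binding site.

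Other transport genes were read from lists of related genes. TAP1 and TAP2, ABC proteins that carry peptides into the endoplasmic reticulum for antigen presentation, fell with miR-629-3p against NC, by 1.36-fold for TAP1 and 1.31-fold for TAP2 (limma adjusted p = 0.0176 and 0.0243), and TAP1 was 1.29-fold lower with miR-210-3p (adjusted p = 0.0489). Of 15 other drug and platinum transport genes 11 were tested. With miR-629-3p 3 were higher and 1 was lower than in NC, beside 9.28% and 7.47% of all genes. Those higher were the copper and platinum importer SLC31A1 (1.38-fold, adjusted p = 0.0425), its relative SLC31A2 (1.76-fold, adjusted p = 0.019) and the volume-regulated anion channel subunit LRRC8A (1.96-fold, adjusted p = 0.00571). The lower gene was the nucleoside importer SLC29A1 (1.40-fold, adjusted p = 0.0473). With miR-210-3p only LRRC8D, another channel subunit, was called, 1.45-fold lower (adjusted p = 0.031), where 2.2% of all genes were lower. With miR-874-3p none was called, beside 0.423% of all genes. Of 21 regulators of ABC genes 18 were tested against NC, and HIF1A was called. It was 1.67-fold higher with miR-629-3p (adjusted p = 0.00623), where 9.28% of all genes were higher. In the list of 13 sterol-responsive genes INSIG1 was 1.91-fold higher with miR-629-3p (adjusted p = 0.0167), beside 9.28% of all genes. HMGCS1 was 1.46-fold lower with miR-210-3p (adjusted p = 0.0371), beside 2.2% of all genes.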

How the data were processed

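The 8 arrays of SAS cells (25 nM of mimic or NC, 100 ng of RNA, 2 arrays a group) were grouped by the labels. The authors deposited Agilent Feature Extraction 11.5.1.1 output, whose intensity values are background-subtracted and detrended but not normalized between arrays, with flags as other columns. A log2 table, likewise deposited, matched the scanner values after a constant offset per array (-0.0488 to 0.00394, all probes within 0.05), used as an alternative. Outlier spots were left out, spots of a probe were averaged, and log2 signal minus each array's 75th percentile was computed. Genes took their brightest probe. Differences were fitted across all 8 arrays with limma 3.58.1 in R 4.3.3 and adjusted by Benjamini-Hochberg. Where a group was not well above background on either array, a fold is a bound against the dimmest detected signal. The fit was tested on simulated data. The number of arrays limits the precision. Members, roles and lists, and the alternatives, were chosen with earlier results of these data known. Named were all called members and the drug efflux members. Alternatives were other background corrections, scalings, filters, tests, a replicate block and leaving out each array, and after seeing the data a crossed block and differences between probes. Probe positions are on hg19, as the files give them. Some single-gene results are not reported here.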

Additional observations from a re-analysis of the deposited data

Results flagged for a closer look

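Family probes that did not enter the fit over genes, and were well above background on a microRNA array but on neither NC array, were looked at again. ABCC13, a pseudogene in human, read -1.53 (log2 minus the 75th percentile) on miR-874-3p replicate 1, where the higher NC array read -4.86. ABCG8 read -1.33 on miR-629-3p replicate 1, against -3.90 at most in NC. ABCC11 read -2.99 on miR-874-3p replicate 1, against -5.07. A further probe of ABCD4 read -2.99 on miR-210-3p replicate 1, against -4.35. Each of these 4 was well above background on 1 array only. The second probe of ABCA2 read -2.64 on miR-629-3p replicate 2, against -3.19, and was so on all 4 arrays of miR-629-3p and miR-210-3p, which fill slide row 1. What sets these readings was not tested.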

How the results depend on the processing

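Read on its brightest probe, no called family gene changed direction under any alternative run. Sizes did change. Across the alternatives the difference of miR-629-3p from NC ran from 0.20 to 1.12 (log2) for ABCC2 and from 0.25 to 1.16 for ABCG2. Other probes of ABCA2, ABCC3 and ABCC5 had the opposite sign to a call of the brightest probe in at least 1 comparison. The count of family genes called was 8 for miR-629-3p, 5 for miR-210-3p and 1 for miR-874-3p against NC, 11 for miR-629-3p against miR-210-3p, and 9 and 5 for miR-629-3p and miR-210-3p against miR-874-3p. In that order, the methods' t-test after Benjamini-Hochberg gave 0, 0, 0, 5, 0 and 0, and the study's threshold of an unadjusted p under 0.05 and 2-fold gave 4, 2, 2, 7, 5 and 1. With no filter on detection miR-210-3p against NC gave 1, miR-874-3p against NC 0, miR-629-3p against miR-210-3p 6 and miR-210-3p against miR-874-3p 0. A fit of only the groups compared, with fewer arrays to estimate the spread, gave 2 for miR-210-3p against NC, 0 for miR-874-3p against NC, and 1 and 0 for miR-629-3p and miR-210-3p against miR-874-3p. Normexp background correction gave 9 for miR-210-3p against NC and 0 for miR-874-3p against NC, where a floor at the dimmest detected signal and a filter for all 8 arrays also gave 0. The cause of these shifts was not tested. Leaving out each array in turn, the counts ranged from 1 to 11, 1 to 9, 0 to 1, 4 to 12, 1 to 10 and 0 to 5, a lone array being assumed to vary like the other groups. The miR-629-3p count against NC was 1 without miR-629-3p replicate 1, 2 without its replicate 2, and 3 without either NC array. Of 39 gene calls 7 held without each array in turn: ABCC2 with miR-629-3p against NC and miR-210-3p, ABCA5 and ABCA10 between these microRNAs, and 3 calls of ABCA13, which entered only through its bright miR-629-3p arrays and says nothing of stability. Replicate numbers are shared by label only, with correlations of deviations from -0.106 to 0.034, none over 0.1. With the replicate number as a block miR-210-3p gave 2 calls against NC and 2 against miR-874-3p. The block gave 6, 1, 8 and 6 in the other comparisons. With the NC numbers crossed, miR-874-3p against NC gave 0 calls. Slide as a block was not run, since all arrays share 1 slide. With 2 arrays a group, and signals near background for ABCA13, ABCC2 and ABCA3, small differences were not detectable.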
